A study of Homo sapiens with 4 samples.

Results

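The mitochondrial ribosomal protein genes were read on 4 expression arrays of a breast cancer cell line. Members were taken by name. They are the genes with a probe set annotated to 1 gene alone and a symbol of MRPL (large subunit) or MRPS (small subunit) followed by a number, with pseudogenes and antisense genes left out. This gave 75 of the 19775 genes on the array, 48 of the large and 27 of the small subunit, with 140 probe sets of the 41097 annotated to 1 gene alone. No measured value entered that naming rule, though earlier results of these data were known when the members were chosen. The RefSeq gene table holds 77 symbols of this form. MRPS24 and MRPL53 are the other 2, and their probe sets name a second gene.

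The mitochondrial ribosome translates the few messages of the mitochondrial genome, which encode core subunits of the respiratory chain and ATP synthase. Its RNAs come from that genome, while every one of its proteins is encoded in the nucleus, made in the cytosol and imported. The small subunit reads the codons and the large subunit joins the amino acids and holds the exit tunnel. Many of the proteins have a bacterial counterpart, and many others were added in the mitochondrial lineage.

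The cells were SUM159, a mesenchymal, triple-negative breast cancer line, carrying pTRIPZ, a doxycycline-inducible lentiviral vector, with miR-100. They were sorted by aldehyde dehydrogenase (ALDH) activity, a property used to enrich stem-like tumour cells, and both fractions were then held in suspension culture. Each fraction had a control culture and one given doxycycline (DOX), which makes 4 groups of 1 array, with the construct in all 4. Titles and protocol give 10 h and doxycycline, while the sample descriptions give 13 h and doxorubicin, a different drug, and the sources used here do not settle which applies. Tetracyclines such as doxycycline also act on mitochondrial ribosomes, and no array here has the drug without the construct, so drug and miR-100 cannot be told apart. With 1 array a group, a difference between a pair of arrays has no replicate check, and the 4 arrays come from 1 line. In such bulk samples fewer cells of a type and less RNA per cell cannot be told apart.

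Values were deposited on a log2 scale, 1 for each probe set, and array medians over all probe sets lay between 6.18 and 6.22. The ALDH-negative arrays correlated at r = 0.996 over all probe sets, the ALDH-positive arrays at 0.983, and the least alike pair of the 4 at 0.970. Of 2 genes listed for the sorted activity, ALDH1A1 was higher in ALDH-positive cells without DOX (difference 1.05) and not with it (-0.20). ALDH1A3 was higher without DOX (0.63) and lower with it (-1.15), where it read 6.64 against 7.79 in ALDH-negative cells. The line's mesenchymal genes were high (VIM 13.64 to 13.79), and CDH1, EPCAM, ESR1 and PGR were under a level of 6 on every array. Of 10 immune cell markers 4 reached a level of 6 (LAPTM5, CD74, HLA-DRA and MS4A1). Summed, the list read 11.38 and 11.77 on the ALDH-positive control and DOX arrays against 9.81 and 9.86 on the ALDH-negative ones. All 4 read higher in ALDH-positive cells without and with DOX, while PTPRC, CD3E, CD14 and LYZ stayed under 6. Of the endothelial list 2 of 4 genes reached that level, with sums of 8.70 and 8.74 on the ALDH-positive arrays and 9.92 and 9.76 on the ALDH-negative ones, and CDH5 and VWF stayed under 6. The 2 went opposite ways in ALDH-positive cells, PECAM1 lower (-3.80 without and -2.06 with DOX) and KDR higher (3.08 and 2.75). The 1 erythroid gene of 2 with a reading, HBB, gave 6.98 and 6.44 against 5.77 and 5.62. The part of these genes in the results was not tested.

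Short sequences are shown first, since the expressed microRNA acts through its seed and since members share motif letters around their starts. The mature microRNA of the construct's name is given as in RefSeq, on the minus strand of chr11:122152275-122152296 (GRCh38.p14), with the seed, bases 2 to 8, in capitals.
hsa-miR-100-5p: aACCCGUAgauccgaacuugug
Matches to this seed in the members' transcripts were not analysed here.

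RefSeq promoter windows, from 250 bases before to 50 bases after a start (GRCh38.p14), were found for 67 of the 75 members, in 83 windows. The letters AAGATGGC, the core bound by YY1, a regulator of many mitochondrial genes, stood on either strand in 20 of the 67 (29.9%). In the same windows of 15843 protein-coding genes the share was 4.66%, of all 27305 genes 3.52%, and of 69 cytosolic ribosomal protein genes 10.1%. The share was 31.7% of large and 26.9% of small subunit genes. Of the 23 matches in these windows, 15 lay after the start and 17 read as written. The letters contain an ATG. Examples are shown because most of the matches lay within the first transcribed bases, with the motif in capitals and each window on the strand of its gene.
MRPS30 (chr5:44808951-44808976, plus strand): tcgcgggcaAAGATGGCggcggccag
MRPS18B (chr6:30617854-30617879, plus strand): gcgtacgtcAAGATGGCggcgtctgt
MRPS18A (chr6:43687766-43687791, minus strand): aggtttttgAAGATGGCggccctcaa
MRPL42 (chr12:93467513-93467538, plus strand): gattgaaacAAGATGGCgggttcgtg
MRPL38 (chr17:75904862-75904887, minus strand): gccggagggAAGATGGCggcgccctg
MRPL46 (chr15:88467364-88467389, minus strand): ggagaacgaAAGATGGCggcgcccgt
MRPL20 (chr1:1407262-1407287, minus strand): gacccgggcAAGATGGCagcggcgct

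The letters CCGGAAGT, an ETS core of the kind GABP binds, stood in 16.4% of the members' promoters against 6.97% of protein-coding genes. The share was 22.0% in the large subunit (9 of 41) and 7.69% in the small (2 of 26), with no test of these small counts. Cytosolic ribosomal protein genes had 15.9%. MRPL20, MRPL38, MRPL47, MRPL51 and MRPL52 each hold it and the YY1 letters in the same promoter window.
MRPL20 (chr1:1407321-1407346, minus strand): accttcgccCCGGAAGTatcgcaggg
MRPL3 (chr3:131502987-131503012, minus strand): taaaacgcaCCGGAAGTgggtccggc
MRPL47 (chr3:179604661-179604686, minus strand): cttgagacgCCGGAAGTgacgctatc
MRPL27 (chr17:50373220-50373245, minus strand): acgcagggcCCGGAAGTagatctcct
Other motifs stood at shares nearer to those of protein-coding genes. The NRF1 core CGCATGCG was in 4.48% of members against 3.28%, the E-box CACGTG in 13.4% against 10.9%, the CCAAT box in 34.3% against 42.1% and the GC box GGGCGG in 59.7% against 64.3%. All 6 motifs were read on both strands, and in no window of a member did matches of different motifs overlap. A match is a description of letters and not a site.

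**Figure D1:**
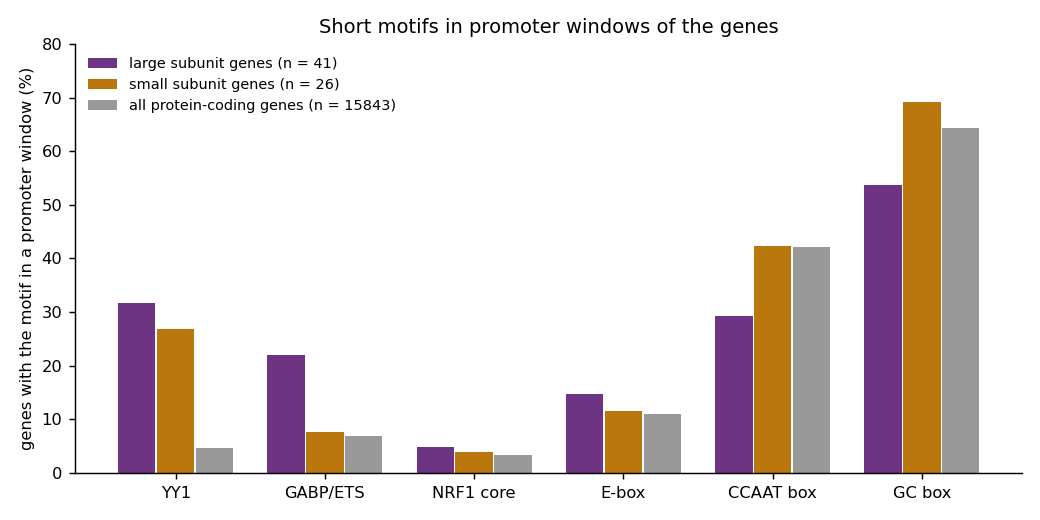
Share of genes, in percent, with each of 6 motifs in a RefSeq promoter window, for 41 large subunit genes, 26 small subunit genes and 15843 protein-coding genes. The YY1 letters stand in 31.7% and 26.9% of the subunit genes against 4.66% of protein-coding genes.

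A stretch upstream of each of 2 members is shown because their promoters hold different letters. On the brightest probe sets MRPS18C and MRPS6 had the lowest ALDH terms of the family in the additive model (below). The other probe sets of MRPS18C ran the opposite way (below), so its low term rests on the brightest alone. That of MRPS18C, from -200 to -121 relative to its start, has a CCAAT box, an E-box and an NRF1 core in capitals. That of MRPS6, from -190 to -71, has repeated GC boxes in capitals on either strand.
MRPS18C (chr4:83455858-83455937, plus strand): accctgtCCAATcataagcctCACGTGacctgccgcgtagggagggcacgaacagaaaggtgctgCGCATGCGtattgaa
MRPS6 (chr21:34073388-34073507, plus strand): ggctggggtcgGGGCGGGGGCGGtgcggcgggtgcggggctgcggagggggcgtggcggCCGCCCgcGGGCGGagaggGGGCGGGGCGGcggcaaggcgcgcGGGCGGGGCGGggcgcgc
The YY1 letters can be set beside the levels described below. Members with the YY1 letters had a median ALDH difference without DOX of -0.11 (20 genes) and those without of -0.20 (47 genes), and their median DOX differences in ALDH-positive cells were 0.19 and 0.20.

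Each gene was read by its brightest probe set, and all 75 members exceeded a log2 level of 6, taken as the limit for a usable reading, on all 4 arrays. The filter thus removed no member. Mean levels over the arrays ran from 9.08 to 12.95. Levels of different probe sets are not comparable, so the values below are compared for 1 gene across arrays. Every difference is in log2 units, and a call means a difference of at least 1.5-fold (0.58).

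In cells without DOX, most of the family read lower in the ALDH-positive fraction. The median difference, ALDH-positive minus ALDH-negative, was -0.17 over the 75 members, and 52 of them (69.3%) lay below 0. Of the 12365 genes at the level 49.97% lay below 0, with a median of 0.00. Large subunit genes had a median of -0.21 with 37 of 48 below 0, and small subunit genes -0.06 with 15 of 27 below 0. The differences were mostly small. A 1.5-fold lower reading was found in 6 members (8%), against 12.3% of all genes, and a 1.5-fold higher one in 0 members, against 13.8%. No member reached 2-fold, which 10.5% of genes did. Among genes with a mean level of 10 or more, the median was -0.15 for 67 members and -0.03 for 5626 genes. There 7.46% of members and 8.28% of genes were lower by the fold, 0 members and 7.63% of genes were higher, and 4.05% of genes reached 2-fold.

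Of the 6 lower members 4 were of the small subunit (14.8% of its 27 genes) and 2 of the large (4.17% of its 48 genes). The share of all genes was 12.3%, and these small counts have no test. MRPS18C, 1 of 3 paralogs of bacterial protein S18, read 9.92 in ALDH-positive cells against 10.87 (-0.95), and its other probe sets ran the opposite way (below). MRPS34, a protein without a bacterial counterpart, read 9.19 against 10.03. MRPS6, the counterpart of bacterial S6, read 11.90 against 12.67. A further small subunit gene, MRPS28, read 10.29 against 10.90. From the large subunit came MRPL14, which lies at the subunit interface, with 9.53 against 10.42, and MRPL18 with 11.70 against 12.44. At the other end stood MRPL10, at the base of the stalk that recruits translation factors, with 11.06 against 10.58. MRPL42 read 12.20 against 11.73 on its brightest probe set, and its other probe sets did not rise (below). MRPS16, a gene mutated in a mitochondrial disease of respiratory chain deficiency, followed with 11.57 against 11.21.

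**Figure D2:**
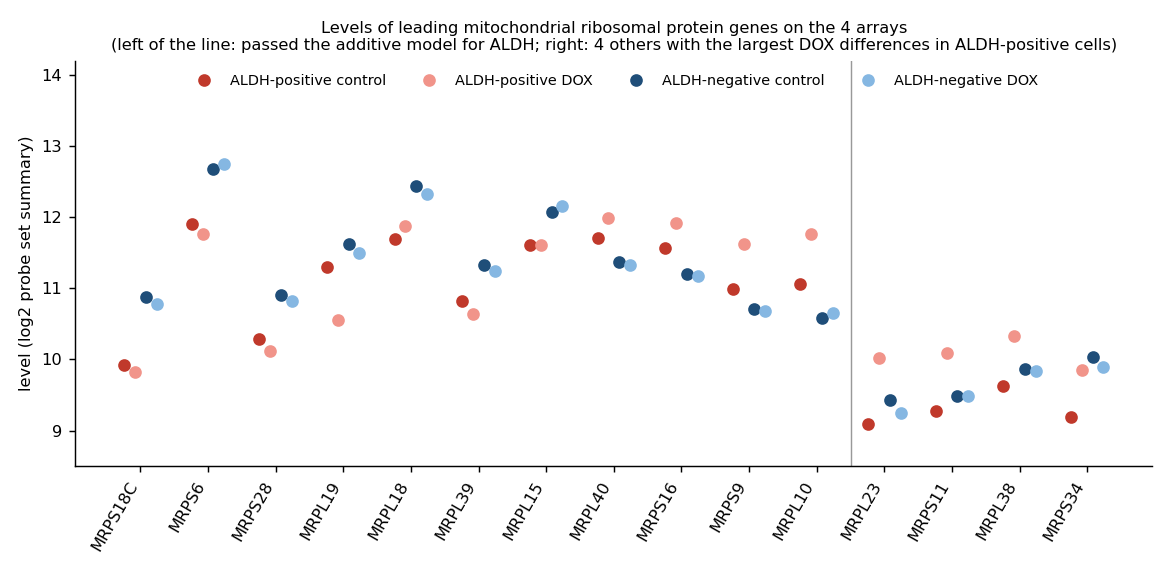
Log2 level of 15 members on the 4 arrays, 1 point an array; the 11 genes left of the line passed the additive model for ALDH and the 4 on the right are others with large DOX differences in ALDH-positive cells. The ALDH-negative pair lies close together for nearly every gene, while the ALDH-positive pair is often split, as in MRPL23 (9.09 and 10.02).

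With DOX the members' median difference between the fractions was close to that of all genes. The median difference, ALDH-positive minus ALDH-negative, was 0.06, with 42 members (56%) above 0 and 33 below, against 0.08 for all genes with 55.5% above 0. When each array was centred on the median of all genes, the family's median turned to -0.06, and that of all genes to -0.04. Subunit medians were 0.03 (large) and 0.11 (small). Calls went both ways, with 7 members 1.5-fold higher (9.33%, against 22.9% of genes) and 5 lower (6.67%, against 12.6%). With centring 4 were higher and 7 lower, and the shares of all genes with centring are not given here. A 2-fold difference was read in MRPL10 alone (1.11), where 16.7% of genes had one.

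The higher members were MRPL10, MRPL23, MRPL40, MRPS9, MRPS11, MRPS16 and MRPS18B. MRPL10 read 11.76 in ALDH-positive cells against 10.65, and MRPS9, the counterpart of bacterial protein S9, read 11.62 against 10.68. MRPL23, which sits at the exit tunnel, read 10.02 against 9.25 with DOX but 9.09 against 9.43 without. The lower members were MRPL19, MRPL39, MRPS6, MRPS18C and MRPS28. MRPS6 read 11.76 against 12.75, and MRPL19 10.55 against 11.49. Thus MRPS6, MRPS18C and MRPS28 were lower by the fold in both pairs of arrays, and no member was higher by it in both. The share of all genes called in both pairs is not given here. MRPS18C is counted on its brightest probe set, and its other probe sets ran the opposite way (below).

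The ALDH differences without and with DOX come from pairs that share no array, so they can be set against each other. Across the 75 members they correlated at r = 0.71 (Spearman's rho 0.70), and across all genes at r = 0.74. Genes are not independent replicates, and the points share the 4 libraries. Of the members, 31 were below 0 in both pairs and 21 above 0 in both, and 21 (28%) went from below 0 without DOX to above 0 with it, against 2 (2.67%) the other way. Over all genes those last shares were 16.1% and 10.5%. The small subunit had r = 0.81 and the large r = 0.61.

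**Figure D3:**
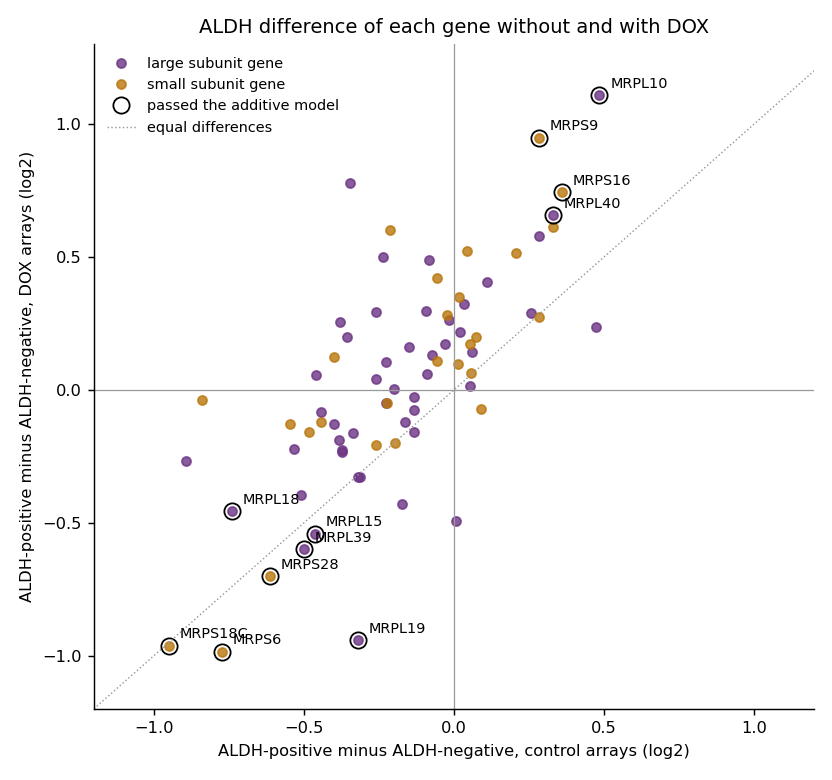
ALDH-positive minus ALDH-negative difference (log2) of each of 75 members on the control arrays (x axis) and the DOX arrays (y axis), with genes that passed the additive model circled. MRPS18C and MRPS6 are low on both axes, MRPL10 is high on both, and more points lie above the line of equal differences than below it.

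An additive limma model with an ALDH and a DOX term, fitted to all 4 arrays and all 12365 genes, gave the 1 test the design allows. It has 1 residual degree of freedom and treats what the terms leave over as error, so it favours genes with the same ALDH difference with and without DOX. At an adjusted p of 0.05 the ALDH term passed for 4 members as higher in ALDH-positive cells (5.33%, against 13.5% of genes) and for 7 as lower (9.33%, against 9.58% of genes). These shares were under or near those of all genes. The split was 1 higher and 5 lower with arrays centred on the median, for which the shares of all genes are not given here. At an unadjusted p of 0.05, 19 members passed (25.3%, against 35.7% of genes). The DOX term passed for 0 members, where 0.00809% of all genes (1 gene) passed, and 2 members had an unadjusted p under 0.05 (MRPL19 and MRPL41; 2.67%, against 5.27% of genes).

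MRPS6 fell in ALDH-positive cells by 0.88 ± 0.12 (SE) on the log2 scale, 1.84-fold, with an adjusted p of 0.0003 by limma and between 1.296e-05 and 0.0442 over 9 alternatives. It read 11.90 and 11.76 on the ALDH-positive arrays and 12.67 and 12.75 on the ALDH-negative arrays. MRPL18 fell by 0.60 ± 0.13 (adjusted p = 0.0072), with 11.70 and 11.88 against 12.44 and 12.33. Over 9 alternatives its adjusted p ran from 0.00213 to 0.109. MRPL15, of the large subunit core, read 11.61 on both ALDH-positive arrays against 12.07 and 12.15, and fell by 0.50 ± 0.14 (adjusted p = 0.0213, and up to 0.138 over 9 alternatives).

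MRPS18C fell by 0.96 ± 0.22 on its brightest probe set (adjusted p = 0.0080), MRPS28 by 0.66 ± 0.21 (0.0396), MRPL19 by 0.63 ± 0.19 (0.0341) and MRPL39 by 0.55 ± 0.19 (0.0492). MRPL39, a relative of threonyl-tRNA synthetase in the large subunit, read 10.82 and 10.65 on the ALDH-positive arrays against 11.33 and 11.25. MRPS28 read 10.29 and 10.12 against 10.90 and 10.82. Both genes were picked by the model on these same values, so the gap between the fractions is no further support. Not every alternative kept these calls. MRPS18C passed under 7 of 8 (adjusted p up to 0.330), MRPS28 under 6 of 8 (up to 0.102), MRPL19 under 5 of 9 (up to 0.320) and MRPL39 under 4 of 9 (up to 0.954).

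Among the 4 that rose, MRPL10 had the largest value, 0.80 ± 0.20 (adjusted p = 0.0150), with 11.06 and 11.76 against 10.58 and 10.65. MRPS9 rose by 0.62 ± 0.21 (adjusted p = 0.0495) and passed under 3 of 9 alternatives. MRPS16 rose by 0.55 ± 0.17 (0.0340) and MRPL40 by 0.49 ± 0.16 (0.0424). MRPS16 passed under 4 of 9 alternatives (adjusted p up to 0.652) and turned negative under 2 of the 9. MRPL40 passed under 5 (up to 0.163) and MRPL10 under 7 (up to 0.0866). MRPL40, a protein of the large subunit without a bacterial counterpart, read 11.71 and 11.99 against 11.38 and 11.33. MRPL40 and the other 3 read higher on both ALDH-positive arrays than on both ALDH-negative ones, and higher with DOX than without it among the former. The model picked them on these same arrays, so the order of the fractions is no further support.

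Most members read slightly higher with DOX than without it in ALDH-positive cells. The median difference, DOX minus control, was 0.18, with 59 of 75 members (78.7%) above 0. For all genes it was 0.11, with 60.7% above 0. Large and small subunit medians were alike (0.18 and 0.19). Centring each array lowered the median of all genes to -0.02 and that of the members to 0.05. Among genes with a mean level of 10 or more the medians were 0.16 for members and 0.03 for all, with 76.1% and 53.4% above 0. A 1.5-fold higher reading was found in 7 members (9.33%, against 14.6% of genes) and a lower one in 1 (1.33%, against 6.82%). With centring these counts were 2 and 1, and the shares of all genes with centring are not given here. A 2-fold difference was read in 0 members and 5.78% of genes.

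MRPL23 had the largest difference, with 9.09 without and 10.02 with DOX. MRPS11, a protein of the small subunit platform, followed with 9.27 and 10.09. MRPL38, of the large subunit, read 9.62 and 10.34, MRPL10 11.06 and 11.76, MRPS34 9.19 and 9.85, MRPS9 10.99 and 11.62 and MRPL28 9.35 and 9.96. For MRPS34 the ALDH-positive DOX array thus lay next to the ALDH-negative ones (10.03 and 9.89). MRPL19, a further large subunit protein, was the 1 member lower by the fold, at 11.30 without and 10.55 with DOX on its brightest probe set. Its other probe sets differed less (below).

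In ALDH-negative cells the readings with and without DOX were close. The median difference was -0.04, with 57 of 75 members (76%) below 0, against -0.00 and 50.9% for all genes, and the members ran from -0.25 (MRPL14, 10.42 and 10.18) to 0.22 (MRPL43, 10.18 and 10.40). MRPL41 followed, at 11.99 and 12.18. No member was 1.5-fold higher or lower, where 1.15% and 0.618% of genes were, or 2-fold, where 0.322% were. Few genes of any kind differed by the fold in that pair of arrays.

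DOX differences in the fractions, from pairs that share no array, did not go together across members (r = 0.03, and 0.12 across all genes). In 44 of 75 members the reading was higher with DOX in ALDH-positive cells and lower with it in ALDH-negative cells (58.7%), and in 3 the reverse (4%). Over all genes these shares were 29.3% and 17.6%. The median of the difference between fractions was 0.20 for the members, 0.20 for the large and 0.28 for the small subunit, and 0.11 for all genes. With arrays centred it was 0.06 for the members.

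**Figure D4:**
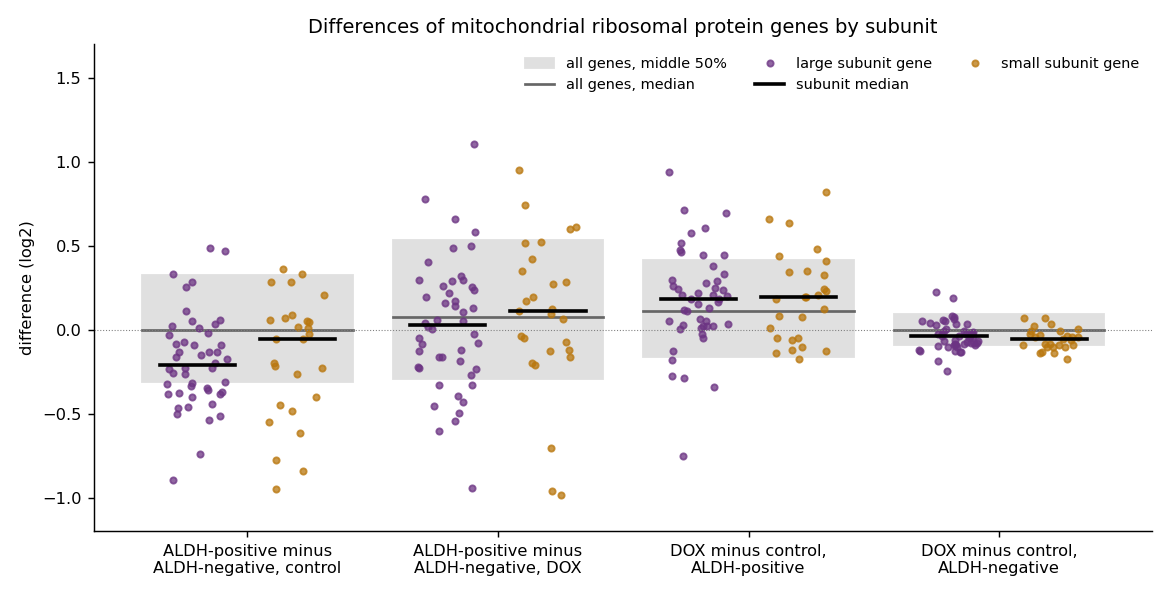
Log2 difference of each large (48) and small (27) subunit gene in the 4 pairs of arrays; black bars are subunit medians, the grey line and band the median and middle 50% of 12365 genes. Large subunit genes centre at -0.21 in the first pair, both subunits centre at 0.18 and 0.19 for DOX in ALDH-positive cells, and for DOX in ALDH-negative cells the points gather near 0.

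The gap between the subunit medians was widest in ALDH-positive against ALDH-negative cells without DOX, where the large subunit median was 0.16 under the small one (large minus small -0.16). The same quantity was -0.08 with DOX, -0.01 for DOX in ALDH-positive cells and 0.01 in ALDH-negative cells. These gaps between medians have no test. The mean of each gene's probe sets in place of the brightest brought the first gap to -0.05, and turned that with DOX to 0.07 and that for DOX in ALDH-positive cells to 0.06. MRPS30 and MRPS18A carry small subunit names but sit in the large subunit by structure, and moving them over gave -0.13 for the first gap.

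Split by origin, members of the large subunit with a bacterial counterpart (29) had a median ALDH difference without DOX of -0.23 and those specific to mitochondria (19) of -0.17. In the small subunit the medians were -0.22 (15) and 0.03 (10). The 10 small subunit genes classed as mitochondria-specific thus centred near 0. MRPS33 (12.17 against 11.97) and MRPS18B lay above it and MRPS34 and MRPS26 (10.77 against 11.25) below. MRPS18B was put in this class although it is a paralog of bacterial S18, and medians with it in the other class are not given. With DOX in ALDH-positive cells the classes lay between 0.16 and 0.24 in median difference.

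The stalk that brings factors to the ribosome holds MRPL12 in several copies, with MRPL10, MRPL11 and MRPL54 at or near its base. Its members went different ways. MRPL10 and MRPL12 read higher with DOX in ALDH-positive cells (11.06 to 11.76 and 10.32 to 10.84), whereas MRPL11, at 10.88 and 10.86, did not. ALDH-positive minus ALDH-negative, MRPL11 was at -0.32 without and -0.33 with DOX, and MRPL54 at 0.03 and 0.32. MRPL12 crossed 0, from -0.26 to 0.29.

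The 3 paralogs MRPS18A, MRPS18B and MRPS18C occupy different places in the ribosome. MRPS18A read 10.45 and 10.40 on the ALDH-positive arrays against 10.17 and 10.13, and MRPS18B 11.55 and 11.74 against 11.22 and 11.13. Both thus read higher in ALDH-positive cells with and without DOX, but neither passed the additive model (adjusted p = 0.396 and 0.0616). MRPS18C ran the other way on its brightest probe set. MRPS30 read 11.76 to 11.82 on 3 arrays and 11.65 on the ALDH-negative DOX array.

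MRPL46 and MRPS11 are the sole pair of members that are adjacent protein-coding genes in the RefSeq table. Their ALDH differences were -0.36 and -0.22 without DOX and 0.20 and 0.60 with it, and their DOX differences 0.47 and 0.82 in ALDH-positive cells and -0.08 and 0.00 in ALDH-negative cells. The pair thus had the same sign in the first 3 of these comparisons.

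Different probe sets of a gene did not always agree. Of the members, 37 had 2 or more probe sets, and in 35 of them at least 2 reached the level. In 20 of the 35 all such probe sets lay on the same side of 0 for the ALDH difference without DOX, in 19 for that with DOX, and in 21 and 22 for the DOX difference in ALDH-positive and ALDH-negative cells. The brightest and next brightest probe sets correlated across these genes at 0.016, -0.017, 0.30 and 0.40 in the same order, and without MRPS18C, left out after its values were seen, at 0.43, 0.12, 0.30 and 0.40. Probe sets of a shared kind, which may bind more than 1 transcript, stood for 44 members.

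MRPS18C disagreed most. Its brightest probe set was lower in ALDH-positive cells (-0.95 without and -0.96 with DOX), and its others were higher (1.23 and 1.21 for one, 1.09 and 0.26 for the other). For MRPS16 the brightest gave 0.36 and 0.74 and the other -0.29 and -1.37. MRPL39 gave -0.50 and -0.60 on the brightest and -0.19 and 1.39 on a dim one that read 4.76 to 6.15. A gene's mean over probe sets therefore reversed the ALDH value of MRPS18C, MRPS16 and MRPL39 in the additive model (0.31, -0.14 and 0.03), and none of the 3 passed.

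In other members the probe sets differed in size or direction, or ran together. MRPS18B was 0.33 and 0.61 higher on the brightest and 1.05 and 1.61 on the other. MRPL35 was near 0 on the brightest (0.06 and 0.14) and strongly lower on another (-1.68 and -1.44), where it read 9.58 and 9.84 against 11.26 and 11.28. MRPL4 had -0.38 and 0.26 on the brightest, with -1.02 and -0.60 and -0.33 and 0.92 on the others. For MRPL19 the DOX difference in ALDH-positive cells was -0.75 on the brightest and -0.10 and -0.19 on the others. Its ALDH difference with DOX was -0.94 on the brightest and -0.28 and -0.04 on the others. The ALDH difference of MRPL42 without DOX was 0.47 on the brightest and 0.00 and -0.08 on the others. All 5 probe sets of MRPL41 read higher with DOX in both fractions, by 0.34 to 0.47 in ALDH-positive and 0.16 to 0.28 in ALDH-negative cells. MRPS6, MRPL10, MRPL15, MRPL18, MRPL40, MRPS9, MRPS28 and MRPS34 had 1 probe set each, so no second reading was available.

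**Figure D5:**
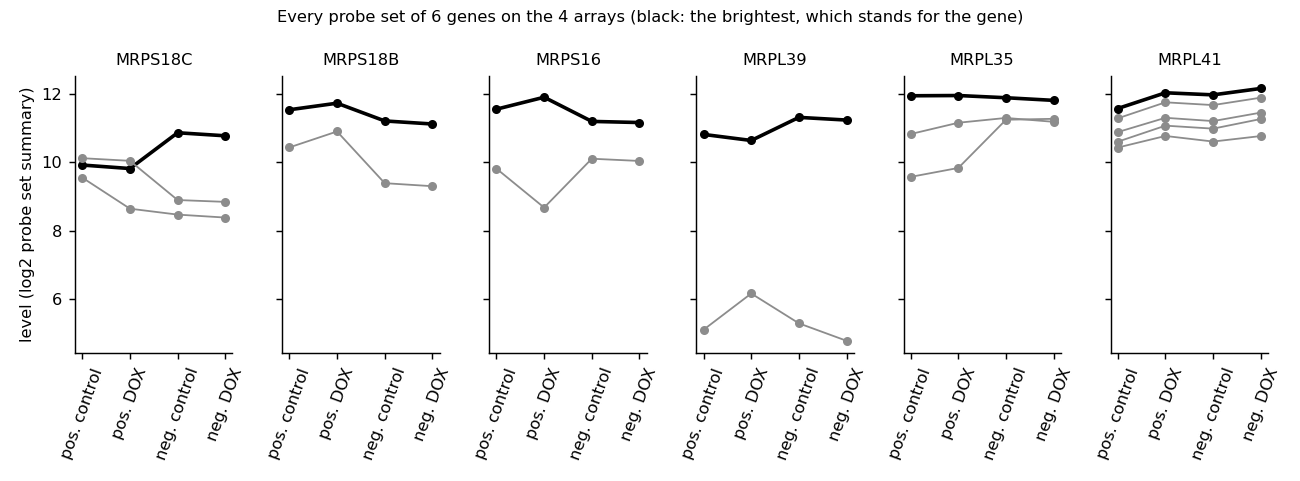
Log2 level of every probe set of 6 members on the 4 arrays, with the brightest in black and others in grey. For MRPS18C and MRPS16 the probe sets cross or diverge between the fractions, whereas the 5 of MRPL41 run in parallel.

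Other genes of mitochondrial translation gave a frame for these values. Ribosomal proteins without an MRP name (4 of 5 measured) had medians of -0.17, 0.26, 0.22 and -0.03 for the ALDH difference without and with DOX and the DOX difference in ALDH-positive and ALDH-negative cells, and 0 passed the additive model for ALDH. DAP3, a GTP-binding protein of the small subunit, had ALDH differences of 0.27 without and 0.38 with DOX. CHCHD1, another small subunit protein, read 9.96 and 10.09 on the ALDH-positive arrays against 10.62 and 10.54. The 11 translation factors (of 12 listed) had medians of -0.07, 0.33, 0.31 and -0.06. Of these 1 rose in ALDH-positive cells, the initiation factor MTIF2 (0.53 ± 0.16, adjusted p = 0.0338), and 1 fell, MTFMT, which formylates the initiator tRNA (-0.84 ± 0.23, 0.0218).

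Assembly and rRNA modification factors (20 of 21 at the level) had medians of -0.23, 0.14, 0.34 and -0.02, and 2 rose with ALDH (10%, against 13.5% of genes) and 0 fell (against 9.58%). These were NOA1, a GTPase, which read 11.81 and 11.96 against 11.18 and 11.17, and RBFA, a small subunit assembly factor, at 10.12 and 10.39 against 9.54 and 9.41. Genes of mitochondrial transcription and RNA handling (16) had medians of -0.33, -0.24, 0.09 and -0.05, with 1 that rose (6.25%) and 3 that fell (18.75%). TFAM, which packages mitochondrial DNA, read 11.89 and 11.83 against 12.29 and 12.25, and the elongation factor TEFM 9.81 and 9.87 against 10.77 and 10.66. LRPPRC, which stabilises mitochondrial messages, rose (12.50 and 12.52 against 12.09 and 12.09), and TRMT10C, a subunit of mitochondrial RNase P, fell.

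Of 9 regulators of mitochondrial gene programmes 0 passed the additive model for either term. Several had low readings on the ALDH-positive DOX array. MYC read 13.54 without and 12.41 with DOX in ALDH-positive cells against 13.33 and 13.22 in ALDH-negative cells, GABPB1 10.75 and 9.61 against 10.79 and 10.80, and PPARGC1B 10.01 and 9.09 against 10.03 and 9.94. PPARGC1A went the other way, at 6.94 and 8.23 against 7.02 and 6.67. YY1 lay between 12.04 and 12.18 on all 4 arrays. The members' readings on that array were higher than without DOX in 59 of 75 genes, as given above.

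Cytosolic ribosomal protein genes (58 at the level) had medians of 0.05, 0.07, 0.02 and 0.01, and 10 of them rose with ALDH (17.2%, against 13.5% of genes) and 0 fell (against 9.58%). Nuclear genes of the respiratory chain and ATP synthase (70), whose products join those made on mitochondrial ribosomes, had medians of -0.10, 0.12, 0.20 and -0.03, with 4 that rose (5.71%) and 6 that fell (8.57%). The mitochondrial ribosomal protein genes had -0.17, 0.06, 0.18 and -0.04. In ALDH-positive cells 64 of the 70 (91.4%) read higher with DOX, against 60.7% of genes. All lists were read on the same 4 arrays, and no test of one list against another was made.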

How the data were processed

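Total RNA of 4 samples was read on Affymetrix arrays. Per the submitters' processing notes, the authors summarised probe sets by RMA, giving the deposited log2 values; no version of it is stated there. Probe sets were named by the platform annotation, updated to RefSeq symbols, and those naming several genes were left out. Each gene was read by its brightest probe set, at a log2 level of 6 or more on at least 1 array. Differences of array pairs have no test. The additive model was fitted with limma 3.58.1 (R 4.3.3; lmFit, eBayes with trend) over 12365 genes, with Benjamini-Hochberg adjustment. It was also run on simulated data with independent noise of 1 size for all genes and arrays. Real noise need not be of that kind, so that run checks the fit and not the p-values of these arrays. Array numbers limit the precision.

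The members, lists and tests were chosen with earlier results of these data known. Genes named are the 5 highest and 5 lowest of each pair, those passing the model, the S18 paralogs, MRPS30 and members whose probe sets disagree, with up to 4 genes of each other list. Genes with a mean level of 10 or more, cytosolic ribosomal, respiratory chain and neighbouring genes, and leaving out MRPS18C were added after the values were seen; other genes named were chosen then too. Alternatives were array centring, the level, the probe set rule, the fold and the eBayes settings. Values under 6 set to 6 and the symbols of the array annotation were the others.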

Additional observations from a re-analysis of the deposited data

Results flagged for a closer look

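In the 7 results flagged the DOX difference had opposite signs in the 2 fractions, higher with DOX in ALDH-positive and lower in ALDH-negative cells. Each group had 1 array, and none of these differences was tested. Such signs were read in 44 of 75 members (58.7%) and 29.3% of all genes. The DOX difference was 1.5-fold or more higher in ALDH-positive than in ALDH-negative cells in 8 members (10.7%), against 14.8% of all genes. The median over the members of the difference between the fractions was 0.20. For MRPL23 it was 1.12, from 0.94 and -0.18, and for MRPS34 0.80, from 0.66 and -0.14. MRPL38 gave 0.73, MRPS9 0.66, MRPL4 0.64 and MRPL14 0.62. Centring each array lowered the median to 0.06.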

How the results depend on the processing

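With each array centred on the median of all genes, the ALDH median with DOX was -0.0595 in place of 0.06, members called for DOX in ALDH-positive cells were 3 in place of 8, the difference of the DOX differences was 0.0594 in place of 0.20, and 6 in place of 11 members passed the additive model for ALDH, as centring moved the median of all genes from 0.08 to -0.04 with DOX and from 0.11 to -0.02 for DOX in ALDH-positive cells. Without a filter on level 2 passed, without the eBayes trend 2, with probe sets averaged per gene 6, and without shared probe sets, which leaves 43 members, 7. For these alternatives the shares of all genes are not given here. MRPS6 passed under all 9 alternatives. Some of these could not change a member's values, since no member read under 8.91 on any array. A level of 7, values under 6 set to 6 and the eBayes settings act on members only through the fit. The directions kept under them were thus fixed in advance, and counts of alternatives passed include them. The gap of large minus small subunit medians turned to 0.0747 (ALDH with DOX) and 0.0572 (DOX in ALDH-positive cells) with the mean of probe sets, and the latter to 0.0766 without shared probe sets. At 2-fold the calls were 0 in place of 6, 1 in place of 12 and 0 in place of 8. Without shared probe sets MRPL23 turned to -0.61 (DOX in ALDH-positive cells), MRPL39 to 1.39 (ALDH with DOX) and 0.60 (additive), and MRPS16 to -1.37 and -0.83. The probe set of MRPL23 used there read 5.997 at most, under the limit of 6 on all 4 arrays. That of MRPL39 was dim as well, at 4.76 to 6.15. With the mean of probe sets MRPL39 turned to 0.40 and 0.0253, MRPS16 to -0.31 and -0.14, and MRPS18C to 0.46 without DOX, 0.17 with DOX and 0.31 in the model. Apart from the construction of each setting, the cause was not tested. Of the results that answer a comparison, 103 of their values kept direction and call, 7 lost the call, 4 reversed and 3 were counted as moved. Of those of named genes 212 kept both, 41 lost the call and 12 reversed. No paired analysis was possible because each group is 1 array. Signal over background limits dim probe sets, and the model's 1 residual degree of freedom limits its p.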
